A study of Mus musculus with 4 samples.

Results

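The mouse carries a pair of neighbouring lysozyme genes, Lyz2 and Lyz1. Their RNA was measured in bone marrow derived macrophages with and without a Cre that is read here as driven from the Lyz2 locus. Members were the array features annotated with the single symbol Lyz1 or Lyz2. Each gene had 1 such feature, so 2 of 41345 deposited features, or 2 of 22180 genes with a feature of their own, are described here. Both were read on all 4 arrays.

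Marrow cells had been grown for 6 days with L-cell supernatant, a source of macrophage growth factor, and all of them had received 100 ng/ml of lipopolysaccharide (LPS) for 2 hours. The control genotype was PP2ACαfl/fl, with exon 1 of the gene for the catalytic subunit PP2ACα (Ppp2ca) between loxP sites and no Cre. The knockout genotype was PP2ACαfl/fl;lyM-Cre, the same floxed alleles with a Cre that deletes this exon in myeloid cells. The labels call the 2 arrays of a genotype biological replicates and say nothing of separate mice, and their small number limits the precision; if they were not separate animals, the p-values measure a technical spread.

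Lysozymes are small secreted and lysosomal enzymes that cut the sugar backbone of peptidoglycan, the mesh of the bacterial cell wall. Lyz2 encodes lysozyme M, an abundant product of macrophages and neutrophils, and Lyz1 encodes lysozyme P, best known from the granules of Paneth cells in the small intestine. The widely used LysM-Cre line carries the Cre coding sequence inserted at the start of the Lyz2 coding region, so that the allele drives Cre in place of lysozyme M. The labels' lyM-Cre is read here as that line; they do not spell the name out or give the number of Cre alleles per mouse. Cre and the loss of PP2ACα were present together in the knockout cells and together absent from the controls, so their parts in any difference between the genotypes cannot be told apart. In RNA from whole cultures, fewer cells of a type and less RNA per cell cannot be told apart either.

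The windows just before the starts of the genes are printed because Lyz2 and Lyz1 share much of this sequence, whereas their RNA did not differ between the genotypes in the same direction. Both come from RefSeq on build GRCm38.p6, 250 bases each, 5′ to 3′ on the minus strand of chromosome 10, at chr10:117282273-117282522 for Lyz2 and chr10:117292869-117293118 for Lyz1. Capitals mark a match, on the opposite strand, to the letters AGGAAGT, a core bound by ETS factors such as PU.1, the master regulator of macrophages.
Lyz2: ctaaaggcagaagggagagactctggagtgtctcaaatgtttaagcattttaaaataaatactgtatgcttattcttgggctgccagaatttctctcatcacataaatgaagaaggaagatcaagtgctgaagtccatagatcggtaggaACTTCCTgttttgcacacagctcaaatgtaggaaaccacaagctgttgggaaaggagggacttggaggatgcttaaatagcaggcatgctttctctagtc
Lyz1: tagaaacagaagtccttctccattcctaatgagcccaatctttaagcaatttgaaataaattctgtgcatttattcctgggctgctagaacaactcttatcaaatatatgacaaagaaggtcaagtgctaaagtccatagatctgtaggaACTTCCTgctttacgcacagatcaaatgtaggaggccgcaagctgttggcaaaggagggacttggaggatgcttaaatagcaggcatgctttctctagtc
A global alignment of the windows had 252 columns, of which 200 (79.4%) were identical, 48 held different bases and 4 a gap. The resemblance was highest next to the gene. Without gaps, 115 of the 125 bases nearest the start were identical, and the last 50 bases before the start did not differ at all. In both genes the match to AGGAAGT began 100 bases before the start, and in both the first ATG of the transcribed part began at its base 31. Of 32851 promoter windows of this length, 7.69% held AGGAAGT on either strand. The letters TTNCNNAA, a loose form of the site of C/EBP factors, occurred 1 time in each window, beginning 55 bases before the start in Lyz2 and 209 bases before it in Lyz1, and in 36.8% of all windows. No match overlapped another. The exact letters TATAAA of the TATA box, present in 12.4% of all windows, were in neither, and looser forms were not searched for. A match is a description of letters and not of a bound site. The starts of the genes lay 10596 bases apart, with no protein-coding gene between them in the RefSeq table.

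Lyz2 RNA was lower in knockout macrophages by a wider margin than that of any other tested gene. The control arrays read 12.21 and 11.92 log2 units and the knockout arrays 6.99 and 6.75. Both control arrays were thus far above both knockout arrays, and the nearest arrays of the groups stood 4.92 log2 units apart, against gaps of 0.29 between the control arrays and 0.25 between the knockout arrays. The group means were 12.06 ± 0.21 and 6.87 ± 0.17 (SD, n = 2 each). By limma, knockout minus control was -5.19 log2 units with an SE of 0.14 and a 95% interval from -5.55 to -4.84 (adjusted p = 0.00095), a 36.6-fold lower signal with bounds of 28.6-fold and 46.8-fold. In linear terms the knockout mean was 2.73% of the control mean. Over the 12542 genes that were bright enough to be tested, 6.79% were called at an adjusted p of 0.05, 3.49% as lower in knockout, and Lyz2 had both the largest absolute difference and the smallest p. With each of 13106 single-symbol features as a unit, 5.88% were called and Lyz2 was among them (adjusted p = 0.0014). It was also called among the 20673 features of any annotation that reached the filter, where 0.0726% passed, and among all 41345 features, where 0.0193% passed. For groups that do not overlap with knockout lower, the background was 26.5% of tested genes.

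The position of Lyz2 among all features describes the same shift. In control macrophages it was among the brightest features of the array, at rank 45 on one array and rank 67 on the other of 41345. In knockout macrophages it stood at ranks 6916 and 7577, still above 83.3% and 81.7% of all features. The remaining signal was therefore above the level of 3.53 log2 units, the median over all features, that served as the filter on dim genes. Which transcripts the probes read besides that of Lyz2 was not tested, as no probe sequences were used here.

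Lyz1 differed in the other direction but did not pass the test. The control arrays read 6.11 and 5.49 log2 units and the knockout arrays 7.15 and 6.63. Both knockout arrays were above both control arrays, by 0.51 at the nearest, which is less than the gap of 0.62 between the control arrays and about that of 0.52 between the knockout arrays. The means were 5.80 ± 0.44 in control and 6.89 ± 0.37 in knockout cells (SD, n = 2 each), and limma put knockout minus control at 1.08 with an SE of 0.26 and a 95% interval from 0.44 to 1.73 (adjusted p = 0.071). This corresponds to a 2.12-fold higher signal with bounds of 1.36-fold and 3.31-fold. Groups that do not overlap were common in these data, at 55.3% of tested genes in either direction and 28.8% with knockout higher, while 3.3% of tested genes were called as higher.

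The arrays of a genotype differed widely for Lyz1. Its residual SD of 0.40 log2 units was reached or exceeded by 1.11% of tested genes, where the median gene had 0.0995. A larger positive difference was found for 79 genes, of which 78 were called. Among 1910 genes whose mean lay within 0.5 log2 units of that of Lyz1, 29, Lyz1 included, differed by at least as much in either direction and 28 of these were called. For Lyz1, and likewise for Lyz2, the array labelled replicate 1 was the brighter in each genotype. With rank 1 the brightest of 41345 features, Lyz1 stood at ranks 9327 and 11024 in control and at 6550 and 7910 in knockout cells.

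**Figure D1:**
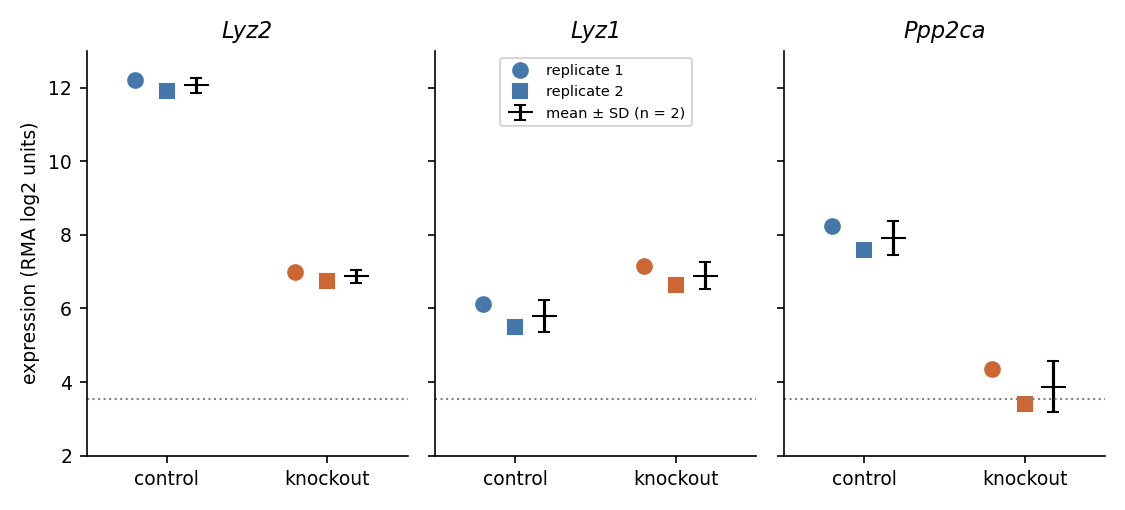
Expression of Lyz2, Lyz1 and Ppp2ca in RMA log2 units (vertical axis) in control (blue) and knockout (orange) macrophages; circles and squares are the arrays labelled replicate 1 and 2, bars the mean ± SD (n = 2), and the dotted line the filter level of 3.53. Lyz2 went from near 12 to below 7, the Lyz1 arrays stood up to 0.62 apart within a genotype, and the knockout arrays of Ppp2ca lay at 4.36 and 3.39 around the dotted line.

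The change of Lyz2 relative to Lyz1 was also taken within arrays. The log2 value of Lyz2 minus that of Lyz1 on the same array, a quantity that no scaling of the whole array can alter, differed by -6.28 units, knockout minus control. The exact permutation test over the 4 arrays gave a two-sided p of 0.333, which is the smallest that 2 arrays against 2 allow. Since different probes read the genes, their levels were not compared with each other.

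The targeted gene served as a check of the labels. Ppp2ca was read at 8.25 and 7.59 log2 units on the control arrays and at 4.36 and 3.39 on the knockout arrays, or -4.04 for knockout minus control (limma SE 0.36, adjusted p = 0.0076), second in size to Lyz2 in the plot of all tested genes. That is the brightest of 3 features of the gene; of the others, one differed by -2.24, from a mean of 5.31 to 3.07, and the last was dim in both genotypes, at 2.63 and 2.51. Ppp2cb, which encodes the other catalytic subunit, read 8.85 and 8.81 in control and 8.81 and 8.77 in knockout cells (adjusted p = 0.83). Array medians lay between 3.50 and 3.57 log2 units, and the arrays correlated across features at 0.986 to 0.990.

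**Figure D2:**
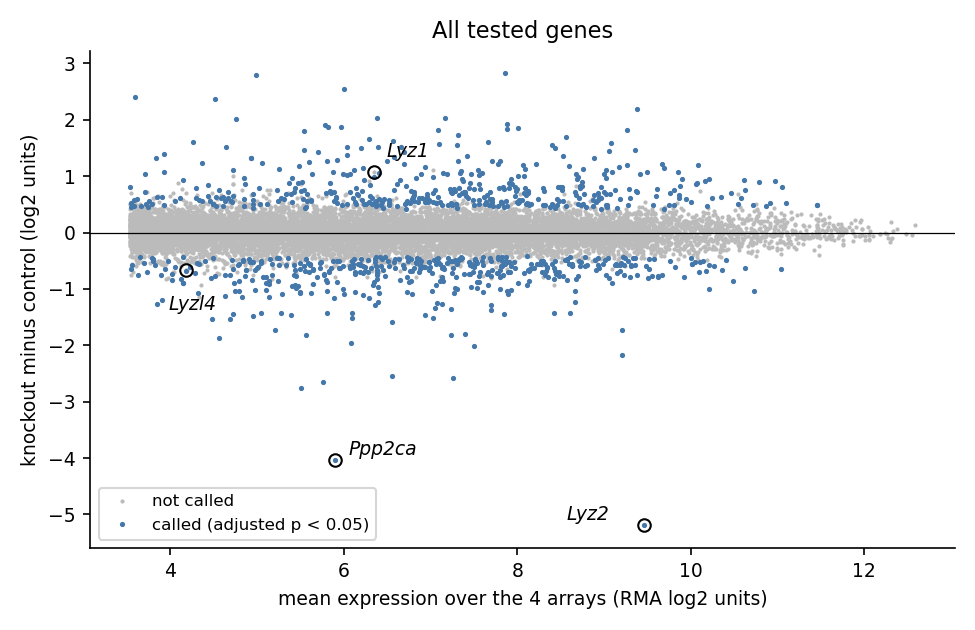
Knockout minus control in log2 units (vertical axis) against the mean over the 4 arrays (horizontal axis, RMA log2 units) for the 12542 tested genes; blue points were called by limma, grey points were not, and circles mark 4 named genes. Lyz2 at -5.19 and Ppp2ca at -4.04 lie apart from the rest, whereas Lyz1 at 1.08 lies among called genes without being called.

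The profiles most like those of the members were looked for as the smallest Euclidean distance over the 4 arrays between log2 values from which each gene's mean had been subtracted. For Lyz2 these were Ppp2ca, by its brightest feature, at a distance of 1.28 log2 units, Lrrc32, which encodes a surface docking protein for latent TGF-β, at 2.44 and the matrix protein gene fibronectin (Fn1) at 2.55. Lrrc32 read 6.93 and 6.86 on the control arrays against 4.09 and 4.17 on the knockout arrays, and Fn1 read 7.10 and 7.08 against 4.39 and 4.46. These distances are wide because no other gene fell by as much as Lyz2. Among these genes the gap between the knockout arrays ran the other way for Lrrc32 and Fn1, whose replicate 2 was the brighter.

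Lyz1 had closer companions. Its nearest profile was that of Trim34a, a member of the TRIM ubiquitin ligase family, at a distance of 0.23, followed by Usp18, the protease that removes the ubiquitin-like ISG15 from proteins, at 0.24 and Gm12250, at 0.26. Usp18 read 7.47 and 6.87 log2 units in control and 8.51 and 8.26 in knockout cells, a difference of 1.22 (limma adjusted p = 0.036). Gm12250 differed by 1.04 (adjusted p = 0.039) and Trim34a by 0.92 (adjusted p = 0.058, not called). In all of these, as in Lyz1, control replicate 2 was the lowest array and knockout replicate 1 the highest. The genes were picked for closeness on these same 4 arrays, so a shared order of arrays and direction follows from the choice. The distance was not scaled by a gene's range, which is smaller for Lyz1 than for Lyz2. With 4 arrays such a likeness is a description of a few values.

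**Figure D3:**
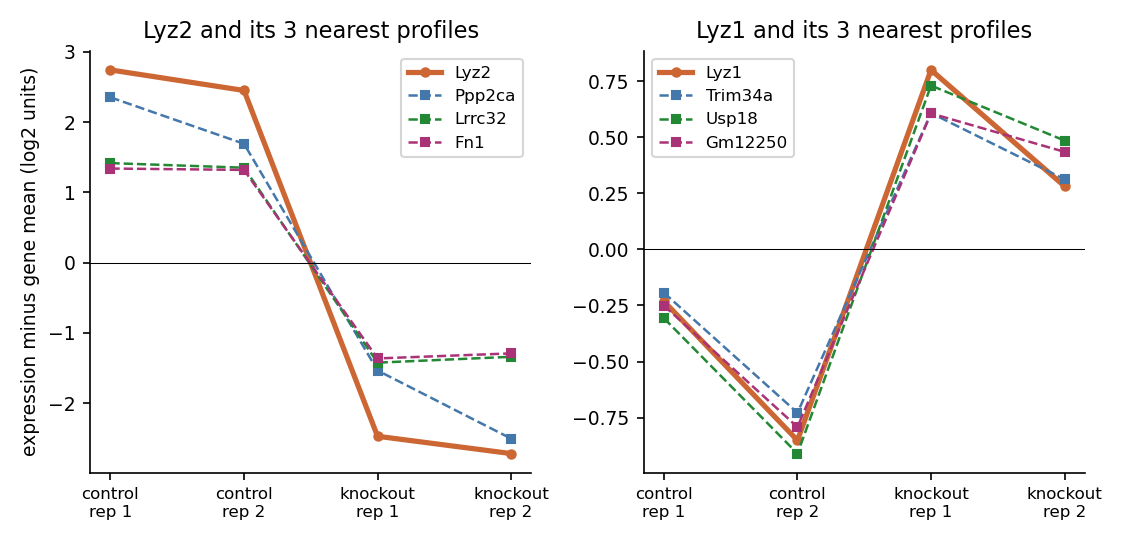
Log2 expression minus the gene's own mean (vertical axis) on each of the 4 arrays for Lyz2 (left) and Lyz1 (right), in orange, with the 3 genes of smallest distance; lines join the values of a gene and imply no order of arrays. The panels have different vertical scales: Lyz2 spans over 5 log2 units, Lyz1 under 2.

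Other genes of the lysozyme family gave little signal in these cells. Of 10 family members on the array, 3 reached the filter: Lyz2, Lyz1 and Lyzl4, a lysozyme-like gene known from the male reproductive tract. Lyzl4 read 4.69 and 4.33 log2 units in control and 3.80 and 3.88 in knockout cells, a difference of -0.67 (SE 0.14, limma adjusted p = 0.051). This lay at the threshold. The adjusted p was 0.043 with quantile normalization, 0.045 with median centring, 0.048 with the mean of a gene's features and 0.036 with a variance trend. It was 0.10 with no filter, 0.093 with the replicate number as a block and 0.30 without pooling the variance across genes. The difference always had the same sign. The goose-type lysozyme genes Lyg1 and Lyg2, the lysozyme-like genes Lyzl1, Lyzl6, Spaca3 and Spaca5 and the milk protein gene Lalba stayed below the filter, with group means between 2.05 for Spaca5 in knockout and 3.46 for Spaca3 in both genotypes. The family list thus had 1 call, the fall of Lyz2 itself, among 3 tested genes, beside 6.79% of all tested genes called. All 3, Lyz2 and Lyz1 included, had an unadjusted limma p under 0.05, as did 24.7% of all tested genes.

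None of the tested genes next to the pair on chromosome 10 was called. Of the 10 nearest protein-coding genes on each side, 19 had a feature of their own and 11 were bright enough to test. limma called 0 of the 11, where 6.79% of all tested genes were called, so this count is no result about the neighbours. Their differences ran from -0.33 for the nuclear pore gene Nup107 to 0.46 for Mdm1. Of the 11, 4 had an unadjusted p under 0.05, or 36.4%, against 24.7% of all tested genes. Their median absolute difference was 0.16 log2 units beside 0.15 over all tested genes. On the Lyz2 side the nearest tested genes were Yeats4, which encodes a chromatin reader, at -0.05, the chaperonin subunit gene Cct2 at -0.27 (adjusted p = 0.15) and Rab3ip, the gene of a Rab exchange factor, at -0.24 (adjusted p = 0.25). On the Lyz1 side they were the RNA cleavage factor gene Cpsf6 at -0.09, Mdm2, which encodes the ubiquitin ligase of p53, at 0.26 (adjusted p = 0.16) and the solute carrier gene Slc35e3 at 0.14 (adjusted p = 0.37). Mdm2 read 11.07 and 11.00 log2 units in control and 11.24 and 11.35 in knockout cells, and Cct2 read 10.31 and 10.37 against 10.12 and 10.02. The groups did not overlap for either gene, yet the shifts were small beside the -5.19 of Lyz2. Ifng and Il22, further along on the Lyz1 side, stayed below the filter in both genotypes.

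**Figure D4:**
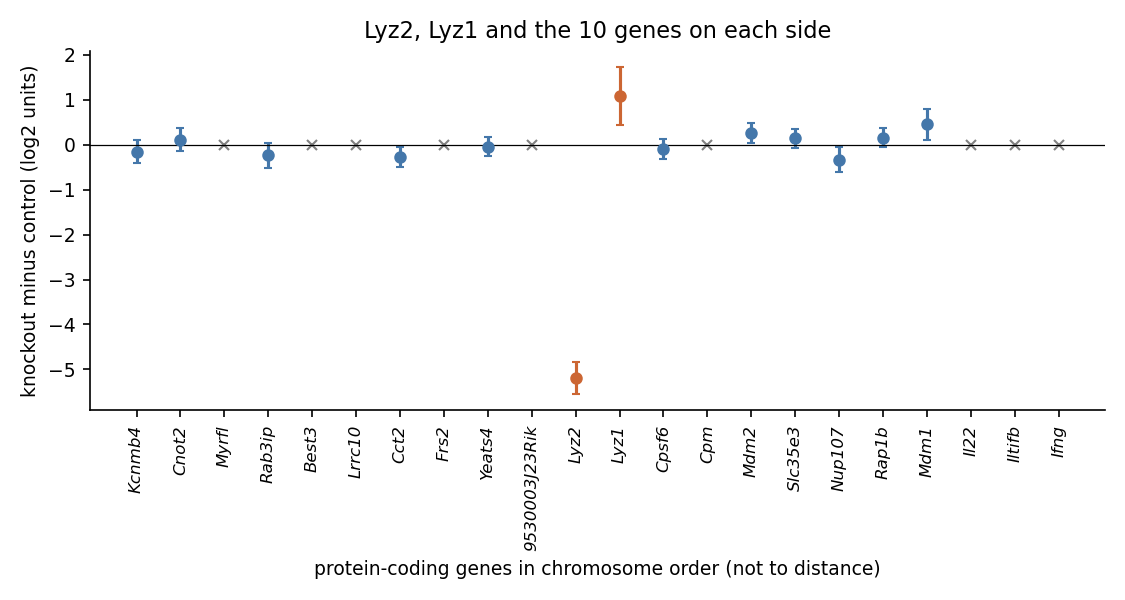
Knockout minus control in log2 units (vertical axis) with limma 95% intervals for Lyz2 and Lyz1 (orange) and the tested genes among their 10 neighbours on each side (blue), in chromosome order and not to distance; grey crosses on the zero line are genes that were not tested. The neighbours lie between -0.33 and 0.46, while Lyz2 lies at -5.19 and Lyz1 at 1.08.

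Peptidoglycan fragments released by lysozyme are carried across membranes and recognised inside the cell by NOD1 and NOD2. Of 10 tested genes of peptidoglycan sensing and transport, 1 rose and 0 fell, where 6.79% of all tested genes were called and a share this close to the background is no result about the list. It was Slc46a3, a solute carrier of the lysosomal membrane, which read 7.65 and 7.87 log2 units in control and 8.43 and 8.55 in knockout cells, or 0.73 higher (limma SE 0.11, adjusted p = 0.028), and its call was lost whichever array was left out (adjusted p 0.059 to 0.16). The list's median difference was 0.05 beside 0.0076 over all tested genes. Nod1 at 0.46 (adjusted p = 0.13) and Nod2 at 0.32 (adjusted p = 0.14) did not pass. The transporter genes Slc15a3 and Slc15a4, of the endosomal membrane, differed by -0.02 and 0.28, and Tlr2, the receptor of bacterial lipoproteins, by -0.06.

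Of 14 tested genes of other antibacterial products of phagocytes, 1 rose and 0 fell, near the background of 6.79% called over all tested genes, and the median difference was 0.12. The riser was Lcn2, which encodes an iron-scavenging lipocalin, at 0.58 (SE 0.11, limma adjusted p = 0.045), from 6.23 ± 0.12 to 6.81 ± 0.14 (SD, n = 2 each), and again no call held with an array left out (adjusted p 0.093 to 0.22). Bright effectors included Cybb, the core subunit of the NADPH oxidase, at 0.06 and Slc11a1, a metal transporter of the phagosome, at -0.07. The perforin-like gene Mpeg1, also bright, differed by 0.21, and none of these passed. Of the 14 tested genes, 4 (28.6%) had an unadjusted limma p under 0.05, against 24.7% of all tested genes.

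Transcription factors that act on the lysozyme gene or on myeloid genes at large were measured beside them. limma called 0 of 11 tested factors, where the background was 6.79%, so this count is no result about the factors. Their median difference was 0.09, and 1 gene, Cebpb, had an unadjusted p under 0.05, against 24.7% of all tested genes. Spi1, which encodes PU.1, read 9.16 ± 0.17 in control and 9.25 ± 0.07 in knockout cells (SD, n = 2 each; adjusted p = 0.66). Cebpa differed by -0.06 (adjusted p = 0.76) and Runx1 by 0.15 (adjusted p = 0.36). Cebpb, a factor of macrophage activation, differed by -0.47 (SE 0.10, adjusted p = 0.053) and also lay at the threshold. Its adjusted p was 0.048 with quantile normalization, 0.038 with median centring, 0.021 with the stricter filter and 0.011 with a variance trend. It was 0.12 with no filter, 0.099 with the replicate number as a block and 0.24 without pooling the variance across genes.

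Lyz2 is also used as a marker of macrophages, and 1 of the other markers fell too, by much less than Lyz2. Of 13 tested macrophage markers 2 rose and 1 fell, beside 3.3% of all tested genes called as higher and 3.49% as lower. The rises were those of Siglec1, a sialic acid receptor, at 1.21 (limma adjusted p = 0.0075) and of the Fc receptor gene Fcgr1 at 0.94 (adjusted p = 0.016). The fall was that of the scavenger receptor gene Marco at -0.86 (adjusted p = 0.018, but 0.053 with the replicate number as a block). Csf1r, the receptor of the macrophage growth factor, differed by -0.03, Cd68 by -0.01 and Itgam by -0.07. Of the 13 markers, 5 (38.5%) had an unadjusted limma p under 0.05, against 24.7% of all tested genes. Among these, 2 were lower and 3 were higher in knockout. The mean over the list was 10.02 and 10.11 log2 units on the control arrays and 10.15 and 10.17 on the knockout arrays, and all 13 reached the filter.

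Neutrophils and monocytes also transcribe Lyz2. Of 12 neutrophil markers 7 were tested. Mmp8 fell by 0.84 (limma adjusted p = 0.015) and none rose, beside 3.49% of all tested genes called as lower and 3.3% as higher. The median difference of the tested markers was 0.26, opposite in sign to that of Mmp8, beside 0.0076 over all tested genes. The list's mean level was 4.31 and 4.39 log2 units on the control arrays and 4.40 and 4.50 on the knockout arrays. Elane, Ctsg, Camp, Retnlg and Ly6g were below the filter. Of the 7 tested neutrophil markers, 3 (42.9%) had an unadjusted limma p under 0.05, 1 lower and 2 higher. Of 5 tested monocyte markers, Ms4a4c at 1.50, Ccr2 at 0.83 and Ly6c2 at 0.76 rose and F13a1 fell by 0.79, beside the same 6.79% called over all tested genes; the list's mean level was 5.90 and 6.02 in control and 6.37 and 6.42 in knockout cells. An unadjusted limma p under 0.05 was reached by 4 (80.0%) of the 5 monocyte markers, 1 lower and 3 higher. The share over all tested genes was 24.7%. The part of neutrophils and monocytes in the levels of Lyz1 and Lyz2 was not tested. Of 7 dendritic cell markers 4 were tested, with a median difference of 0.06, and 1 was called, beside 6.79% of all tested genes. The integrin gene Itgax fell by 2.54 (limma adjusted p = 0.0012), while Ccr7 at 0.40, Flt3 at 0.16 and Cd209a at -0.04 did not pass. The mean level of that list, Itgax included, was 4.87 and 4.93 log2 units on the control arrays and 4.50 and 4.60 on the knockout arrays. It also holds Zbtb46 and Xcr1, which were below the filter and differed by 0.04 and -0.12. For T and NK cells, B cells, the mast cell, basophil and eosinophil group and fibroblasts, limma called 0 of 7 tested markers. Over all tested genes 6.79% were called, so 0 of 7 is no result about these cells. Of the 7, 1, Cd4, had an unadjusted p under 0.05, as did 24.7% of all tested genes.

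**Figure D5:**
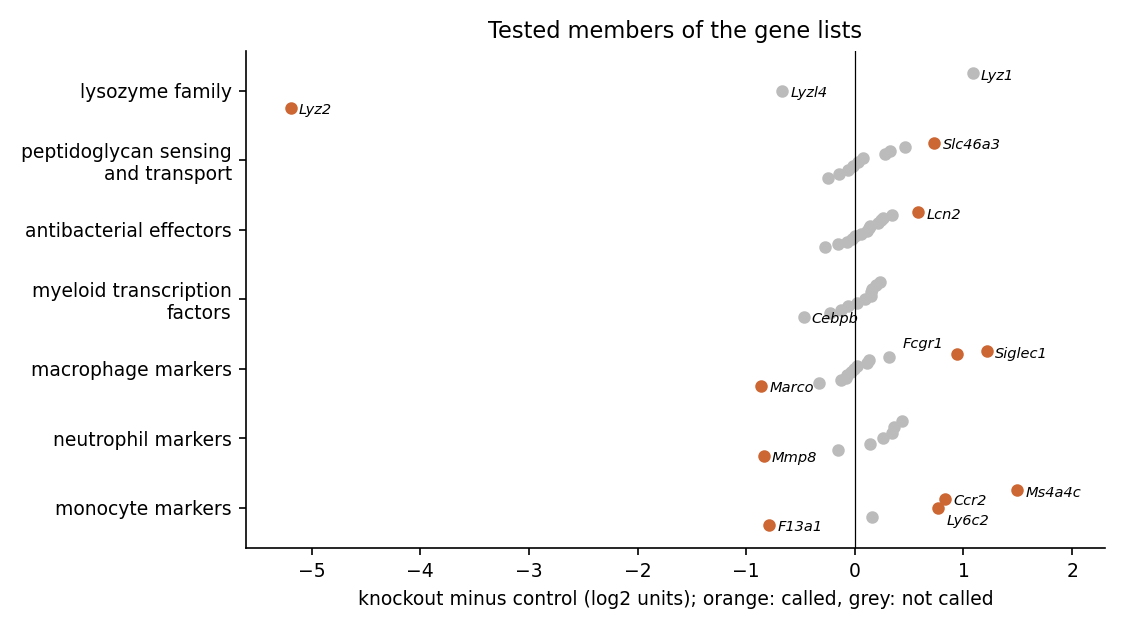
Knockout minus control in log2 units (horizontal axis) for each tested member of the 7 gene lists named at the left, dendritic cell markers not included (rows, points spread vertically for legibility); orange points were called by limma and grey points were not. Lyz2 is the one member beyond -1 in the lists shown. Of the 11 tested myeloid transcription factors 0 were called, where 6.79% of all tested genes were, so this count is no result about them.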

How the data were processed

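RNA (400 ng per sample) from 4 macrophage cultures was labelled with an Affymetrix WT Plus kit. The deposited log2 values were made by the authors with robust multi-array averaging (RMA), per the series' design text, and with oligo, per the submitters' processing notes, which give no version. Such values cannot show a change in total RNA per cell. The array build and probe sequences are not given in the sources used here.

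Features were named from the platform annotation: 23521 had 1 symbol, 1814 several and 16010 none. A gene was represented by its brightest feature and tested if its mean over the arrays reached 3.53 log2 units, the median over all features (12542 of 22180 genes). The test of knockout minus control used limma 3.58.1 (R 4.3.3; lmFit, eBayes, no block, 2 residual degrees of freedom), two-sided, with Benjamini-Hochberg adjustment over all tested genes and a threshold of 0.05; "called", "rose" and "fell" mean past it. Folds are 2 to the power of a log2 difference. The scripts were tested on simulated data. The motifs were chosen with the promoter windows in view, which were aligned with Biopython 1.88.

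The members and the gene lists were chosen with earlier results of these data known. Genes named were the members, Ppp2ca and Ppp2cb, up to 4 called members per list, the 3 nearest tested neighbours on each side and the 3 closest profiles per member. Others were chosen after their values were seen.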

Additional observations from a re-analysis of the deposited data

How the results depend on the processing

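The fall of Lyz2 kept its direction under all 13 alternatives and was called under 12, with differences from -5.23 with median centring to -5.15 with quantile normalization, and from -5.34 to -5.05 when single arrays were left out (adjusted p 0.0065 to 0.027). Without pooling the variance across genes, its difference of -5.19 had an adjusted p of 0.15; limma then called 0 genes, and an unadjusted p under 0.05 was reached by 2295 genes, compared with 3099 when variances were pooled. With all 41345 deposited features as units, 8 were called, Lyz2 among them (adjusted p = 0.042).

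The Lyz1 difference of 1.08 was positive under all 13 alternatives and passed under 4: the stricter filter of 5 log2 units (adjusted p = 0.033), a variance trend (0.022), the trend with robust estimation (0.020) and the replicate number as a block (0.026). It did not pass with any array left out, where it ranged from 0.77 to 1.39 (adjusted p 0.090 to 0.22). Same-numbered arrays did not deviate together across genes (r = -0.04). With so few arrays per genotype, this correlation cannot decide whether the replicate numbers pair the samples.

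The count of 852 called genes became 333 with no filter, 1475 with the stricter one, 312 with the replicate block, 1584 and 1590 with the trend without and with robust estimation, and 96 to 174 with an array left out. Of 17 called genes named here, 12 were also called with no filter, 15 with the block and 5 (Lyz2, Lrrc32, Fn1, Ms4a4c and Itgax) with each array left out; none turned direction. Ppp2ca missed the threshold without control replicate 1 (adjusted p = 0.0503). Quantile normalization gave 2 calls in the lysozyme family and 1 among the transcription factors; with no filter the peptidoglycan and effector lists had 0 each. The neighbours of the pair had 0 under both settings, but Cct2 (adjusted p = 0.039) and Mdm2 (adjusted p = 0.043) passed with the variance trend.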
